A study of Mus musculus with 24 samples.

Results

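The 8 genes described here form the Prader-Willi imprinted cluster of mouse chromosome 7: Snrpn, Snurf, Ndn, Magel2, Peg12, Mkrn3, Ube3a and Atp10a. They were chosen by symbol and not by a rule on their measured levels, but with earlier results of these data known. Of the 8 genes, 7 had a row among the 14922 genes of the table. Snurf (Entrez 84704) had none. RNA was sequenced from female primary neural stem cells (NSCs), the progenitors of the embryonic cortex, taken at E14.5, mid-gestation, grown as an adherent layer in EGF, FGF and laminin and harvested at passage 10 or earlier. The 4 groups combined a strain with an allele of Smchd1, which encodes a chromatin-silencing protein. FVB_WT (5 lines, 6 libraries) was FVB/NJ and Smchd1+/+, and FVB_MD43 (4 lines, 5 libraries) was FVB/NJ and homozygous for MommeD43, a point mutation from a chemical mutagenesis screen. B6GFP_WT (4 lines, 6 libraries) and B6GFP_MD43 (4 lines, 5 libraries) were C57BL/6J, and in the second the MommeD43 change had been made by CRISPR-Cas9. The study's methods describe both B6GFP groups as homozygous for a fusion of Smchd1 with GFP, whereas the labels give the controls as Smchd1+/+. Strain, fusion and origin of the allele therefore differed together and cannot be told apart.

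Batch 1 held 10 libraries of both strains, batch 2 held 6 of FVB and batch 3 held 6 of B6GFP. Of the lines, 5 lines were sequenced in 2 batches. A further 2 of the 24 columns, 1 in each MD43 group, equalled the mean of their group mates and were left out. Since batch 1 alone held both strains, the strain comparisons rest on its libraries. Values are log2 CPM (reads scaled to a common library size, on the log2 scale), already corrected for batch by the authors. The whole reads behind them could be recovered for 99% of genes, and gave 7.95 to 54.5 M reads per library (M, mega; median 33.4 M), and batch 2 was the shallowest. The 6 NSC markers were in the table and summed to between 12.36 and 12.92 log2 CPM in every line. The neuron markers summed to between 4.631 and 8.632, and none of the 4 microglia markers had a row. The 4 oligodendrocyte precursor markers summed to between 8.955 and 9.67, where Olig2 alone had group means from 9.07 to 9.344. B6GFP_WT replicate 4 stood apart: 11.8% of all genes lay more than 1 log2 unit from its group mates. B6GFP_MD43 replicate 2 was similar, at 12.3%.

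Genomic imprinting leaves a gene active on the chromosome from 1 parent only. In this cluster Snrpn, Snurf, Ndn, Magel2, Mkrn3 and Peg12 are expressed from the paternal chromosome, under an imprinting centre at the Snrpn promoter that is methylated on the maternal copy. Ube3a is silenced on the paternal chromosome in mature neurons by an antisense transcript that runs from the Snrpn side, annotated as Snhg14, and is expressed from both copies in most other cells. A maternal bias of Atp10a has been described in some tissues and strains. Loss of SMCHD1 is known to alter several clusters of imprinted genes, and loss of the paternal genes in people causes Prader-Willi syndrome, a disorder of feeding, growth and behaviour. The libraries were not divided by parental allele here, so each level is a sum over both chromosomes.

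Along chromosome 7 (GRCm38.p6, RefSeq coordinates) the order is Atp10a at 58656142 to 58830244 on the plus strand, Ube3a at 59228750 to 59310837 plus, Snrpn at 59982495 to 60450177 minus with Snurf at 59982495 to 60005199 inside it, then Ndn at 62348277 to 62349928 plus, Magel2 at 62376979 to 62381640 plus, Mkrn3 at 62417593 to 62420153 minus and Peg12 at 62461871 to 62464510 minus. Ndn, Magel2, Mkrn3 and Peg12 are each annotated with 1 exon. Snurf and Snrpn are read from the same transcript, and all 216 exonic bases of Snurf lie in exons of Snrpn in the GENCODE M21 annotation, where they are 10.0% of the 2159 exonic bases of Snrpn. Another gene on that strand, Gm38393, shares 27.3% of them. Of the 20626 exonic bases of Ube3a, 8.74% overlap exons of Snhg14 on the opposite strand. The counting tool, its annotation and its use of strand are not given in the sources used here, so the levels of Snrpn and Ube3a are uncertain. In RefSeq, Snurf and Snrpn end at the same base, 59982495, so they may share more than the 10.0% of GENCODE. Whether reads shared by both were counted for Snrpn is not known.

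Promoters of 8 of the 8 genes were found among 32851 windows of RefSeq for GRCm38.p6, each of 300 bases, mostly before a start site and reaching a short way past it. Of these, 3 are shown: the Snrpn and Snurf start at the imprinting centre, and the starts of Ndn and Peg12. As counted, Ndn and Peg12 had the most reads of the paternal genes with a row. Snurf had no row and the level of Snrpn is uncertain. Capitals mark 2 motifs searched on both strands. TGCCGC (read as GCGGCA on the other strand) is the core bound when methylated by ZFP57, the zinc finger protein that protects imprints after fertilisation, and CGCATGCG is a palindrome chosen after the sequences had been seen. In this order the windows are chr7:60005150-60005449 (minus strand), chr7:62348027-62348326 (plus strand) and chr7:62464461-62464760 (minus strand), 5′ to 3′.
Snrpn: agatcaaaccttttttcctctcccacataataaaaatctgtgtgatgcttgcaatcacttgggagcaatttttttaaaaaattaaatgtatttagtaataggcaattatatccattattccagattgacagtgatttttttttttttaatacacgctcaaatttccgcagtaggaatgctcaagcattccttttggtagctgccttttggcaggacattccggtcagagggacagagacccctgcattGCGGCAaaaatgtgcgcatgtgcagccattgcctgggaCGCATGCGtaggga
Ndn: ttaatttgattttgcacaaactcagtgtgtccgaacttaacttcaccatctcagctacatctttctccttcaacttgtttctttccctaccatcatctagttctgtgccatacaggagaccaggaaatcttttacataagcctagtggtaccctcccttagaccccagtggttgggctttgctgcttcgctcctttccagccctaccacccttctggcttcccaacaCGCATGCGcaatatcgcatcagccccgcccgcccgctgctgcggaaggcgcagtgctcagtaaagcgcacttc
Peg12: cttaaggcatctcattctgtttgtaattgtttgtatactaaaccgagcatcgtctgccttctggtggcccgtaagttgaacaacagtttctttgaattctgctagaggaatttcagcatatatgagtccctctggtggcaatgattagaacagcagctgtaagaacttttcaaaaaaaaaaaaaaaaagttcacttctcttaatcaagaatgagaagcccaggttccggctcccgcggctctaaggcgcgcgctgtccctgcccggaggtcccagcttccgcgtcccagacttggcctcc

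Among the member windows TGCCGC was found in that of Snrpn and Snurf, where 11.6% of all windows hold it. The palindrome was found in all 4 windows of Snrpn and in that of Ndn, and 1.87% of all windows hold it. It was chosen from these windows, so that background does not test an excess. The Snrpn windows other than the one shown share long stretches of sequence and are not independent. The Peg12 window held neither. CpG dinucleotides numbered 7 in the Snrpn window shown, 11 in Ndn, 12 in Peg12, 10 in Magel2, 15 in Mkrn3, 20 in Atp10a and 29 in Ube3a, with a median of 7 over all windows. These matches describe the letters and are not measured sites.

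The cluster was expressed unevenly. Levels were compared between genes as CPM per kilobase of exon from the recovered reads, before batch correction, because the correction shifts each gene by its own amount. Peg12, whose product is a FRAT-like inhibitor of the kinase GSK3, had medians of 36.0, 76.5 and 49.7 CPM per kilobase in batches 1, 2 and 3. Ndn, which encodes necdin, a MAGE-family protein of neurons and their precursors, had 31.3, 38.5 and 48.5. Peg12 lay above Ndn in 6 of 10 libraries of batch 1, 6 of 6 of batch 2 and 3 of 6 of batch 3. Over these lengths their order therefore held in batch 2 alone. Ndn has 3694 exonic bases in GENCODE M21 but spans 1652 in RefSeq. Over the shorter length its median lies above that of Peg12 in every batch, so the order depends on the length taken.

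Ube3a, the ubiquitin ligase lost in Angelman syndrome, had medians of 4.72, 6.82 and 5.44 CPM per kilobase in the same batches, and lay below Ndn in 22 of 22 libraries. Mkrn3, a RING-finger ubiquitin ligase that restrains the onset of puberty, had 4.60, 6.33 and 6.29. Ube3a exceeded it in 12 of 22 libraries, so over these lengths this pair did not differ beyond its spread. The lengths were 20626 merged exonic bases for Ube3a and 2547 for Mkrn3. Before scaling by length Ube3a had 109 CPM over all reads and Mkrn3 12.8, so the rank of Ube3a depends on the length taken. Atp10a, a phospholipid flippase of the plasma membrane, had 1.48, 4.64 and 2.59, below Mkrn3 in 21 of 22 libraries. Snrpn, which encodes the splicing protein SmN, and Magel2, a MAGE-family partner of ubiquitin ligases on endosomes, were far lower as counted. Snrpn had medians of 0.186, 0.0445 and 0.177 and Magel2 of 0.172, 0.415 and 0.530, with Snrpn above Magel2 in 7 of 10, 0 of 6 and 1 of 6 libraries.

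On the batch-corrected scale the spacing was different. There the means over 17 lines, in log2 CPM per kilobase, were 5.82 for Peg12, 4.53 for Ndn, 2.55 for Ube3a, 2.15 for Mkrn3, 2.03 for Atp10a, -3.44 for Snrpn and -3.49 for Magel2. Peg12 stood above Ndn in 17 of 17 lines on that scale, by 1.29, and Mkrn3 above Atp10a by 0.12 (SD of the difference 0.919). Both gaps depend on the correction, as the reads above show. The first also depends on length: over its RefSeq span Ndn had 5.695, beside 5.82 for Peg12.

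Counted as reads over the 22 libraries, Ndn had 89567, Peg12 75052, Ube3a 73689, Atp10a 10906, Mkrn3 8696, Magel2 1189 and Snrpn 316. Snrpn was read between 0 and 70 times per library with a median of 11, and Magel2 between 4 and 254 times with a median of 30. The other 5 genes had at least 125 reads in every library. Snrpn had 0 reads in 3 shallow libraries of batch 2, where a count of 0 allows up to 0.313 CPM in FVB_WT replicate 4, 0.274 in FVB_WT replicate 2 and 0.317 in FVB_MD43 replicate 4. These limits, taken as 3 reads, cover counting error only.

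**Figure D1:**
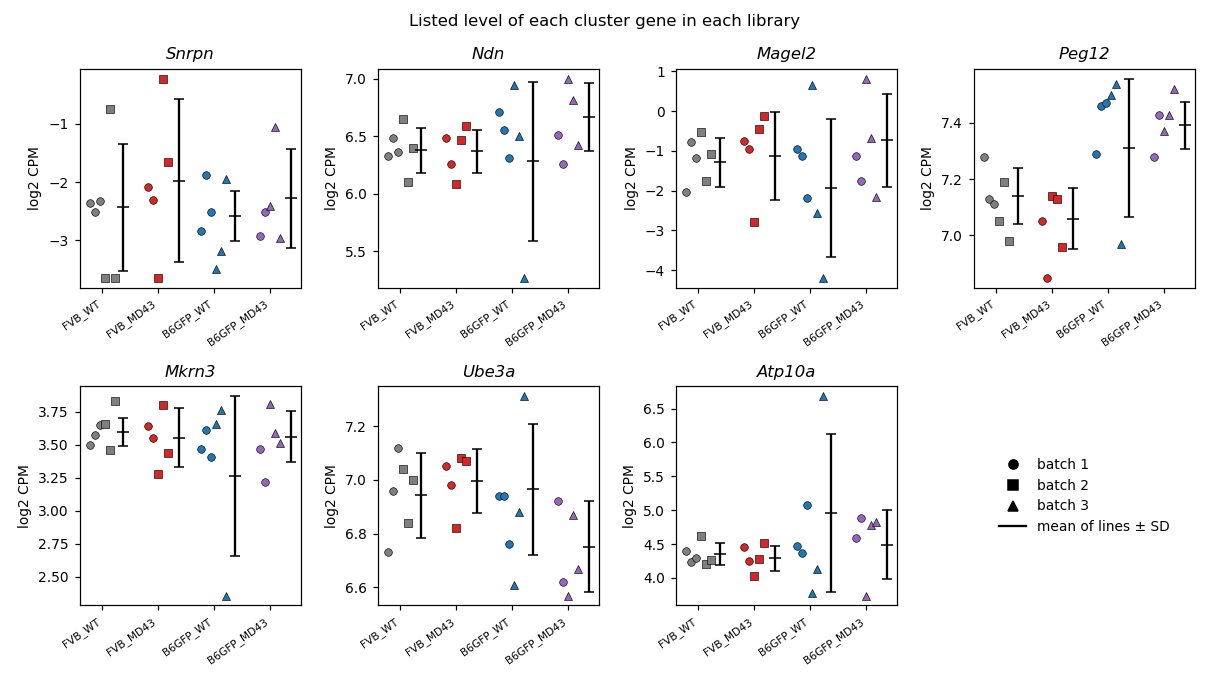
Listed level in log2 CPM (vertical axes, a separate scale per gene) of the 7 cluster genes in each of the 22 libraries, by group on the horizontal axes and with the batch as the symbol. Bars are the mean of lines ± SD; Peg12 lies higher in B6GFP than in FVB of the same genotype apart from B6GFP_WT replicate 4 at 6.97, and the low libraries of Ndn (5.27), Magel2 (-4.19) and Mkrn3 (2.36) are that same library.

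Peg12 had the smallest spread of the 7 genes over lines after batch correction, and was the only member called in these comparisons. In FVB_WT it was listed at 6.98 at the lowest, 7.12 at the median and 7.28 at the highest of 6 libraries, and in B6GFP_WT at 6.97, 7.47 and 7.54. In FVB_MD43 it was listed at 7.05, 6.85, 7.14, 7.13 and 6.96, and in B6GFP_MD43 at 7.28, 7.43, 7.37, 7.43 and 7.52 log2 CPM. The libraries of B6GFP_MD43 all lay above those of FVB_MD43, and those of B6GFP_WT lay above those of FVB_WT except for replicate 4 (6.97), while replicate 1 at 7.29 barely cleared the highest FVB_WT library. Over the 17 lines the SD within groups was 0.149, against 0.179 for Ube3a, 0.34 for Mkrn3, 0.4 for Ndn, 0.651 for Atp10a, 1.0 for Snrpn and 1.23 for Magel2.

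The strains were compared within each Smchd1 genotype to place the cluster against their general difference. In limma's moderated test with Benjamini-Hochberg adjustment over all genes, 41.1% of genes passed an adjusted p of 0.05 in wild type (17.9% higher and 23.2% lower in B6GFP) and 34.4% in MD43 (14.7% higher and 19.6% lower), against 1 of 7 members in each, the higher Peg12. At an unadjusted p under 0.05 the shares were 48.7% with 1 of 7 members in wild type and 43.9% with 2 of 7, Peg12 and Ube3a, in MD43. Peg12 was higher in B6GFP_WT than in FVB_WT by a fitted log2 difference of 0.28 (SE 0.0624, adjusted p = 0.00106), from 7.14 ± 0.0987 (SD, n = 5 lines) to 7.31 ± 0.246 (SD, n = 4 lines). In MD43 it was higher by 0.39 (SE 0.0734, adjusted p = 0.000378, limma), from 7.06 ± 0.109 (SD, n = 4 lines) to 7.39 ± 0.0851 (SD, n = 4 lines). Within batch 1 alone the difference was 0.25 in wild type (adjusted p = 0.033, limma) and 0.40 in MD43 (adjusted p = 0.0199, limma). Without array quality weights it was 0.21 (adjusted p = 0.28, limma) and 0.35 (adjusted p = 0.0946, limma), so neither call held without the weighting. In wild type the lowest weight was 0.101, for B6GFP_WT replicate 4. In MD43 the weights ran from 0.158 for B6GFP_MD43 replicate 2 to 4.9 for FVB_MD43 replicate 2 in batch 1. Without the line FVB_MD43 replicate 2 the weighted MD43 difference was 0.29 and was still called.

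Tested line by line with an exact two-sided permutation test, Peg12 gave p = 0.19 between the wild-type groups and p = 0.0286 between the MD43 groups, the smallest that 4 against 4 lines allow. These tests used the batch-corrected values, in which the lines of batches 2 and 3 are placed relative to batch 1, so the lines are not fully independent between strains. Its lines did not overlap between the MD43 groups, as held for 21.3% of all genes, and overlapped between the wild-type groups, where 15.9% of genes did not. Before batch correction, in the CPM of batch 1, Peg12 stood at 95.1, 85.4 and 84.2 in FVB_WT, 80.9 and 70.3 in FVB_MD43, 95.6, 108 and 108 in B6GFP_WT, and 94.9 and 105 in B6GFP_MD43. Only this batch held both strains, and there every B6GFP library exceeded every FVB library of the same genotype, in wild type by as little as 95.6 against 95.1.

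**Figure D2:**
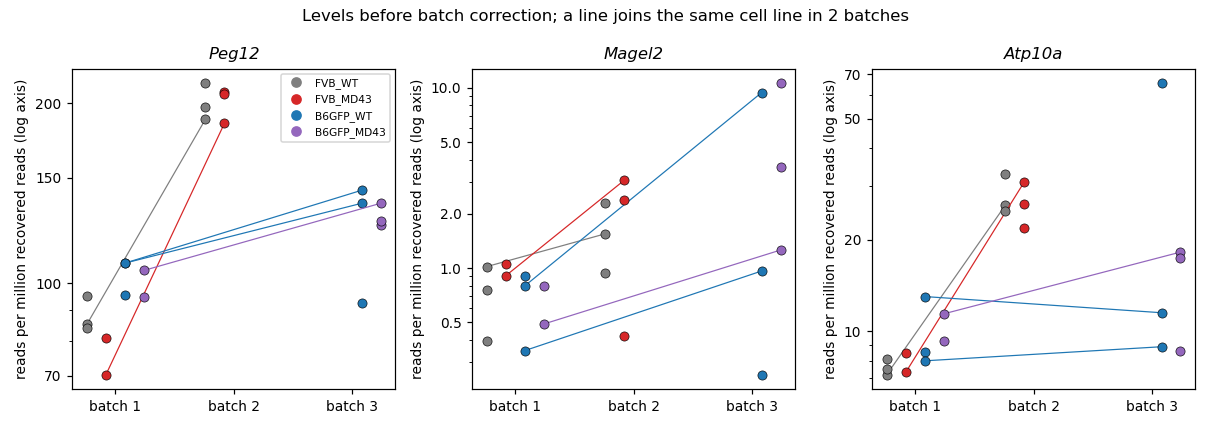
CPM from the recovered reads (vertical axes, log scale) of Peg12, Magel2 and Atp10a before batch correction, by batch on the horizontal axes and with the group as the colour; lines join the same cell line sequenced in 2 batches. Peg12 lies between 70.3 and 108 in batch 1 and between 185 and 216 in batch 2, where Atp10a lies between 21.8 and 32.9, and Magel2 reaches 9.4 and 10.6 in 2 libraries of batch 3.

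Other RNA differed between the strains too. All 4 astrocyte markers were lower in B6GFP in both genotypes, with median log2 differences of -1.76 and -2.17, and their sum ranged from 6.144 to 7.575 in FVB lines and from 4.383 to 6.714 in B6GFP lines. The neuron markers summed to 4.631 to 5.46 in FVB and 5.463 to 8.632 in B6GFP lines. Syt1 was higher (1.74 and 2.21) and Dcx lower (-1.90 and -1.85) in both genotypes. Syt1 alone had a mean of 5.72 in B6GFP_WT, where the median sum was 5.869. Of the 6 neuron markers 2 were higher and 4 lower in B6GFP in each genotype, with median differences of -0.09 and -0.20. The part of cell makeup in the Peg12 difference was not tested, and in bulk RNA fewer cells of a type and less RNA per cell cannot be told apart.

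Peg12 also varied by batch. Before correction its CPM spanned 70.3 to 108 in batch 1 and 92.7 to 143 in batch 3 but 185 to 216 in batch 2, and the lines sequenced in batches 1 and 2 differed by 2.2 and 2.63 times. Atp10a differed by 3.6 and 4.22 times in the same lines, whereas Ndn differed by 1.16 and 1.54 times, Ube3a by 1.41 and 1.47 times and Mkrn3 by 1.61 and 1.25 times. After correction, repeated libraries of a line differed in Peg12 by 0.0332 to 0.152 log2 units.

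Ube3a tended the other way in MD43 without passing. It was listed at 6.73 at the lowest, 6.98 at the median and 7.12 at the highest in FVB_WT and at 6.61, 6.91 and 7.31 in B6GFP_WT. In FVB_MD43 it was listed at 7.05, 6.98, 6.82, 7.08 and 7.07, and in B6GFP_MD43 at 6.92, 6.62, 6.57, 6.87 and 6.67 log2 CPM. The MD43 groups overlapped between 6.82 and 6.92, with the other 3 B6GFP_MD43 libraries below every FVB_MD43 library. The fitted strain difference was -0.19 in MD43 (SE 0.082, adjusted p = 0.0835, limma) and -0.09 in wild type (SE 0.0697, adjusted p = 0.32, limma), and the exact permutation test in MD43 gave p = 0.0857. The MD43 difference passed in 7 of 29 alternatives, and leaving out single lines took it from -0.37 without B6GFP_MD43 replicate 1 (adjusted p = 0.000212, limma) to -0.09 without B6GFP_MD43 replicate 3, with a highest adjusted p of 0.193 over these fits.

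The other 5 genes were not called between strains. Atp10a had fitted differences of 0.29 (SE 0.163, adjusted p = 0.164) and 0.39 (SE 0.192, adjusted p = 0.126) in wild type and MD43, both in limma. It passed without B6GFP_WT replicate 2, at 0.51 (adjusted p = 0.0391) in wild type and 0.48 (adjusted p = 0.0499) in MD43, and in MD43 without B6GFP_MD43 replicate 1 at 0.56 (adjusted p = 0.013, limma). Mkrn3 differed by -0.12 and -0.14, the latter -0.31 (adjusted p = 0.0211, limma) without B6GFP_MD43 replicate 1. For Ndn the values were 0.12 and 0.11, for Snrpn 0.11 and -0.50 and for Magel2 -0.27 and -0.44, with adjusted p between 0.351 and 0.866 over Mkrn3 and these 3 genes.

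**Figure D3:**
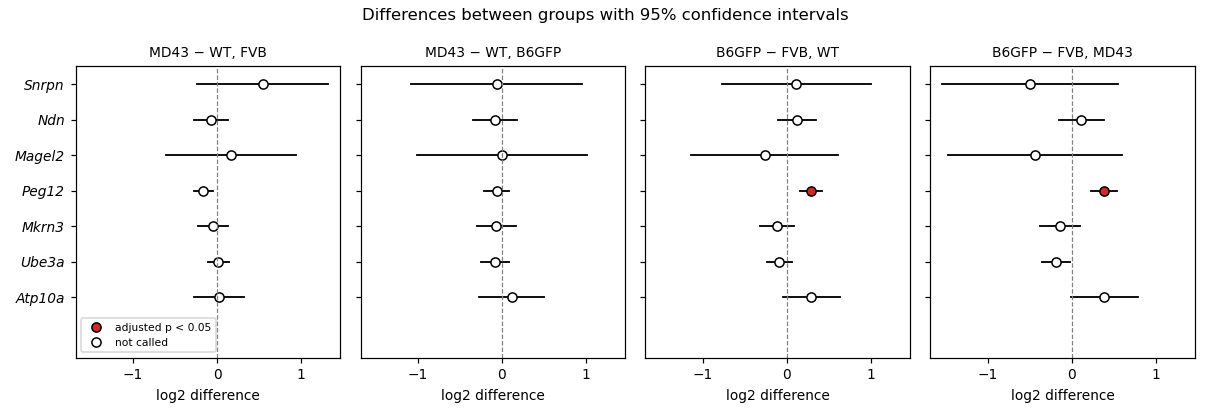
Fitted log2 differences between groups (horizontal axes) of the 7 cluster genes (vertical axis) in 4 comparisons, with 95% confidence intervals as lines. Red points passed an adjusted p of 0.05, as Peg12 did in both strain comparisons (0.28 and 0.39), and the intervals of Snrpn and Magel2 are the widest.

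The comparison of MD43 with wild type asked whether MommeD43 altered the cluster. Smchd1 itself was listed at 7.27 ± 0.118 (SD, n = 5 lines) in FVB_WT, 7.36 ± 0.0704 (SD, n = 4) in FVB_MD43, 6.96 ± 0.277 (SD, n = 4) in B6GFP_WT and 7.16 ± 0.193 (SD, n = 4) in B6GFP_MD43, and as a point mutation MommeD43 cannot be checked by this level. No member was called in MD43 against wild type: 0 of 7 in FVB, where 0.0737% of all genes passed (0.0201% higher, 0.0536% lower), and 0 of 7 in B6GFP, where 0% did (limma). At an unadjusted p under 0.05, 1 of 7 members (Peg12) passed in FVB against 6.86% of all genes, and 0 of 7 passed in B6GFP against 2.14%. Averaged over the strains 0.0335% of genes were called (0.0134% higher, 0.0201% lower) and 0 of 7 members, with a smallest adjusted p of 0.992, and 4.62% of genes and 1 of 7 members (Peg12) had an unadjusted p under 0.05. For the difference of the effect between strains the share was 0% with 0 of 7 members, each at an adjusted p of 1, and 3.07% of all genes and 0 of 7 members at an unadjusted p under 0.05.

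Peg12 came nearest to a change in FVB, by -0.16 in MD43 (SE 0.055, unadjusted p = 0.00699, adjusted p = 0.411, limma), with a 95% confidence interval of -0.28 to -0.05. Of the 4 FVB_MD43 lines 3 lay below the FVB_WT mean. The line means differed by -0.08, and the exact permutation test gave p = 0.333. Leaving out single lines took the fitted difference from -0.21 to -0.07. Within batch 2 alone it was -0.02. In B6GFP the fitted difference was -0.06, with an interval of -0.21 to 0.09, and 3 of 4 MD43 lines lay above the wild-type mean.

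The 95% confidence intervals of the weighted fit gave the range of each difference. In FVB they ran from -0.27 to 0.13 for Ndn, from -0.22 to 0.13 for Mkrn3, from -0.11 to 0.14 for Ube3a and from -0.28 to 0.32 for Atp10a. In B6GFP they were wider, from -0.34 to 0.18 for Ndn, -0.30 to 0.17 for Mkrn3, -0.25 to 0.09 for Ube3a and -0.27 to 0.50 for Atp10a. These limits depend on the quality weights: without them the B6GFP differences were 0.28 for Ndn and 0.20 for Mkrn3, with the sign turned, and -0.28 for Atp10a, each outside the weighted interval (adjusted p = 0.995 each, limma). Snrpn (-0.24 to 1.32 in FVB, -1.08 to 0.95 in B6GFP) and Magel2 (-0.61 to 0.94 and -1.01 to 1.01) had few reads and the widest intervals, which in B6GFP left a fall by 1 log2 unit within the interval for both. In the exact permutation test over lines the members' p lay between 0.333 and 0.952 in FVB and between 0.229 and 0.714 in B6GFP, where the smallest possible are 0.00794 and 0.0286. The ranges of the MD43 and wild-type lines overlapped for 7 of 7 members in both strains, against 1.05% of genes without overlap in FVB and 1.23% in B6GFP.

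For Ndn and Mkrn3 in B6GFP all 4 MD43 lines lay above the wild-type mean (differences of line means 0.383 and 0.297), while the fitted differences were -0.08 and -0.07. The line means include B6GFP_WT replicate 4, at 5.27 for Ndn and 2.36 for Mkrn3, which the fit weights by 0.101. Ndn was listed at 6.1 at the lowest, 6.38 at the median and 6.65 at the highest in FVB_WT and at 5.27, 6.52 and 6.94 in B6GFP_WT. In FVB_MD43 it was listed at 6.48, 6.26, 6.08, 6.47 and 6.59, and in B6GFP_MD43 at 6.51, 6.26, 7.0, 6.81 and 6.42. The groups overlapped widely. Mkrn3 ranged from 3.41 to 3.83 in the wild-type libraries other than that replicate and from 3.22 to 3.81 in the MD43 libraries, and in both genes that library was the lowest of the 22.

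Atp10a was highest in the same library, at 6.68 log2 CPM, or 3563 reads and 65.4 CPM before correction, where the other libraries of batch 3 held 8.63 to 18.2 CPM. Elsewhere it was listed between 3.74 and 5.07. Ube3a too had its highest value there, at 7.31.

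Magel2 varied most among the members. It was listed at -2.03 at the lowest, -1.13 at the median and -0.52 at the highest in FVB_WT, and at -4.19, -1.66 and 0.65 in B6GFP_WT. In FVB_MD43 it was listed at -0.74, -0.95, -2.79, -0.46 and -0.12, and in B6GFP_MD43 at -1.13, -1.76, 0.82, -0.67 and -2.17. Each range overlapped the others. In batch 3 the reads were 254, 31 and 14 in B6GFP_WT replicates 2, 3 and 4 and 247, 199 and 30 in B6GFP_MD43 replicates 4, 2 and 3. The libraries with 254 and 247 reads came from lines whose labels share a number, 23.7 and 23.5. So did those with 31 and 30 reads, 38.5 and 38.1. The library with 199 reads was from line 37.2, whose number no other line shares. What the shared number marks is not stated. Line 23.7 had 31 reads (0.797 CPM) in batch 1 and 254 (9.4 CPM) in batch 3, a ratio of 11.8, while Ndn in the same pair of libraries rose 1.72 times.

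Snrpn as counted was close to the limit of detection in all groups. Whether reads shared with Snurf were left out of its count is not known, so its true level may be higher. Its line means were -2.43 ± 1.09 (SD, n = 5) in FVB_WT, -1.98 ± 1.4 (SD, n = 4) in FVB_MD43, -2.58 ± 0.427 (SD, n = 4) in B6GFP_WT and -2.28 ± 0.847 (SD, n = 4) in B6GFP_MD43. In batch 1, where libraries were deep, reads numbered 13, 15 and 16 in FVB_WT, 26 and 23 in FVB_MD43, 12, 24 and 16 in B6GFP_WT, and 10 and 13 in B6GFP_MD43. Both FVB_MD43 libraries of that batch exceeded the 3 of FVB_WT also in CPM, at 0.529 and 0.444 against 0.375 to 0.433. In batch 2 the reads were 0, 5 and 2 in FVB_MD43 and 0, 4 and 0 in FVB_WT, and both groups overlapped. The highest value, 70 reads or 1.28 CPM, was in B6GFP_MD43 replicate 2, the library with the highest sum of neuron markers (8.632 log2 CPM, against at most 6.91 in the others), and the part of these markers in it was not tested.

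Of 14 neighbours listed along the same region, 10 were in the table. None was called in MD43 against wild type in either strain (0 of 10 each, against 0.0737% of all genes in FVB and 0% in B6GFP). In FVB Ipw, a non-coding RNA of the paternal Snrpn side, was listed at -2.24 ± 0.286 in wild type (SD, n = 5) and -1.35 ± 0.289 in MD43 (SD, n = 4), a fitted difference of 0.77 (adjusted p = 0.352, limma) at 1 to 56 reads per library in FVB. In B6GFP its difference was -0.66 (adjusted p = 1, limma). Snhg14, the antisense host transcript, was listed between 3.0 and 3.41 in the group means and differed by 0.06 in FVB and 0.12 in B6GFP. Between the strains 2 of the 10 neighbours were lower in B6GFP in each genotype. This is near the share of all genes that were lower, 23.2% in wild type and 19.6% in MD43. The neighbours were Nipa1 (-0.25) and Nipa2 (-0.17), which encode magnesium transporters, in wild type. In MD43 they were Nipa2 (-0.17) and Ipw (-1.46, at 1 to 56 reads per library).

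**Figure D4:**
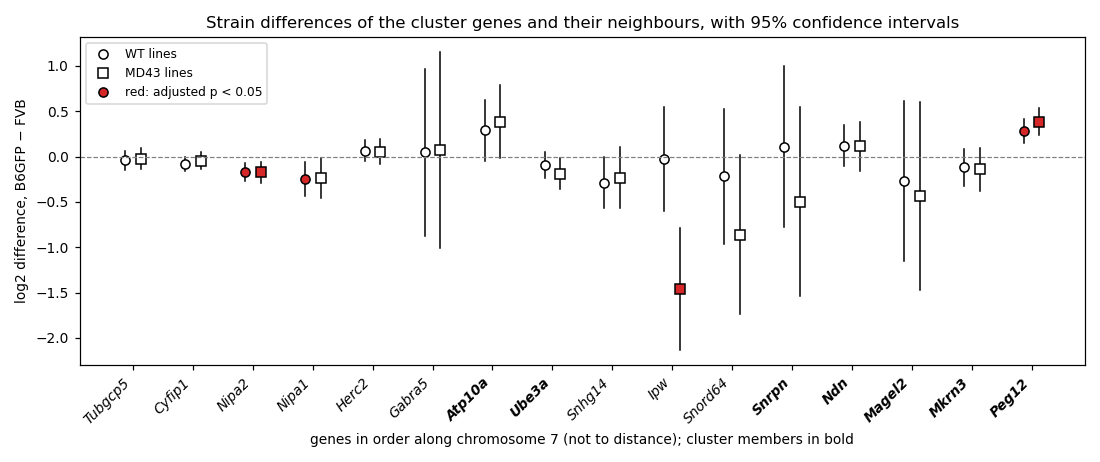
Fitted log2 differences B6GFP minus FVB (vertical axis) with 95% confidence intervals for the 7 cluster genes and neighbours in their order along chromosome 7 (horizontal axis, not to distance), in wild type as circles and in MD43 as squares, in red where the adjusted p was under 0.05. The called genes shown lie at Nipa2, Nipa1, Ipw and Peg12, and no other cluster member is red.

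Partners and relatives of the members were measured from fixed lists, with 0 called in MD43 against wild type in either strain: 0 of 7 core Sm proteins, the ring on which SmN and its paralogue SmB serve, 0 of 10 MAGEL2 partners, 0 of 13 relatives of the members and 0 of 12 factors of imprint maintenance. In those comparisons 0.0737% of all genes passed in FVB and 0% in B6GFP. Between the strains all lists had calls, where 41.1% of all genes passed in wild type and 34.4% in MD43. In wild type 2 of 7 Sm genes were higher in B6GFP, Snrpe (0.28) and Snrpg (0.18), and in MD43 4 of 7, with Snrpd1 (0.27) and Snrpd3 (0.19) added. Among the MAGEL2 partners, 1 of 10 was higher and 5 lower in wild type, and 1 higher and 2 lower in MD43. The deubiquitinase Usp7 was the higher one (0.21 and 0.24), and Washc4 (-0.28 and -0.20) and Washc3 (-0.435 and -0.39), subunits of the endosomal WASH complex, were lower in both. The medians of these lists in wild type were 0.10 for the Sm genes and -0.12 for the MAGEL2 partners, beside -0.02 over all genes.

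Of the 13 relatives 1 was higher and 3 were lower in each genotype. Maged1, another MAGE gene, listed at 10.21 to 10.42 log2 CPM in the group means, was higher in B6GFP by 0.21 and 0.20. Lower were Atp10d, a flippase related to Atp10a (-1.996 and -2.06), Mkrn1 (-0.52 and -0.48) and Ube3b (-0.18 and -0.23). Among the 12 factors of imprint maintenance 1 was higher and 5 were lower in each genotype. The higher one was Dnmt1, the maintenance DNA methyltransferase (0.19 and 0.18), and Ehmt2 (-0.22 and -0.24), Ehmt1 (-0.25 and -0.22), which methylate histone H3, the imprint-binding Zfp445 (-0.25 and -0.22) and Smchd1 itself (-0.22 and -0.28) were lower. These shares stand beside the 41.1% and 34.4% of all genes called.

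After each group's mean was removed, the genes of the table that varied most like each abundant member over the 22 libraries were named as a description. For Ndn they were Nptx2 (r = 0.949), Grin2c (0.934) and Rcn3 (0.933), and for Peg12 Mrpl28 (0.891), Nmral1 (0.888) and Rfc2 (0.867). For Mkrn3 they were Pecr (0.939), Prmt7 (0.926) and Smug1 (0.925), for Ube3a Ppp2r2a (0.897), Fhdc1 (0.889) and Togaram1 (0.885), and for Atp10a Gadd45g (0.959), Tbc1d1 (0.956) and Uaca (0.951). Each of these values was lower without B6GFP_WT replicate 4. Over the 21 libraries left, Rcn3 stayed at 0.921 with Ndn, while Rfc2 fell to 0.703 with Peg12 and Smug1 to 0.735 with Mkrn3. The libraries share batches and depths, and lines with 2 libraries count as 2 points.

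Between members, Ndn and Magel2 varied together (r = 0.886 over 22 libraries and 0.886 without B6GFP_WT replicate 4). Ndn and Mkrn3 had r = 0.872, or 0.632 without that library, and Ndn and Atp10a had -0.791, or -0.407. Ndn and Peg12, both paternal genes at high level, had 0.448 with it and -0.258 without it. Snrpn showed no such relation, with r between -0.136 and 0.271 to the other members at its few reads.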

How the data were processed

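Female NSC libraries (24 columns, poly(A) RNA, 100 ng each, single-end reads) were grouped by their labels. Per the labels and the study's methods, the authors trimmed reads with Trim Galore 0.4.4, mapped them with HISAT2 2.0.5 to GRCm38.p6 and used limma 3.40.6. The deposited values are log2 CPM, corrected additively for batch by the authors. The counter, gene annotation and strand setting are not given in the sources used here.

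The members and gene lists were chosen with earlier results of these data known. The fit (limma 3.58.1, R 4.3.3) had terms for group and batch, array quality weights (0.101 to 4.9), the line as a block (consensus correlation 0.0828) and a mean-variance trend, giving 16 residual and 4.86 prior degrees of freedom. The Benjamini-Hochberg adjustment covered 14922 genes (threshold 0.05). Group means ± SD are over lines, with repeated libraries averaged.

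The 2 columns left out were FVB_MD43 replicate 3 and B6GFP_MD43 replicate 2 of batch 1, equal to the mean of their group mates to within 1e-06. Within a batch, a gene's values on the linear scale rise in steps of 1 read, from which whole reads were solved for 14771 genes (tolerance 0.005 reads). In simulated data 0 of 324944 values were wrong. Limma-voom on these reads was added after the data had been seen. Levels per kilobase used reads before batch correction, a comparison added after the data had been seen. Lengths came from GENCODE M21, promoters and coordinates from RefSeq. Named genes were all members, list genes called for MD43, at most the 5 of a list with the smallest p between strains, and the 3 genes most like each member above 1 CPM. Each member was also tested by exact two-sided permutation of lines. Alternatives covered weights, trend, batch term, low values, pseudocount, centring, blocks, single batches and each line left out. The strain difference of 1 listed neighbour is not reported here.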

Additional observations from a re-analysis of the deposited data

Results flagged for a closer look

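In 28 sets, each a member within a group of lines, the highest and lowest line were compared with the others by Dixon's gap test, and 3 sets held a line beyond its 95% critical value, where chance gives about 1 in 20. Ndn in FVB_MD43 replicate 4 was 6.08 log2 CPM, with the other 3 lines between 6.43 and 6.48. Magel2 in the same line was -2.79, from 4 reads, with the others between -0.74 and -0.46. Mkrn3 in B6GFP_WT replicate 4 was 2.36, with the others between 3.47 and 3.63. That library also had the lowest Ndn and Magel2 and the highest Atp10a and Ube3a of all 22 libraries.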

How the results depend on the processing

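Over 1220 alternative values of 42 member differences, 1204 stayed on their side of the threshold, 14 passed newly and 2 no longer passed, both Peg12 between strains without quality weights. Those that passed newly include Snrpn, Ndn, Ube3a and Atp10a between the MD43 groups in the fit with all 24 columns. Of the called values 0 changed sign. Differences that were not called did change sign under some settings, such as Ndn, Mkrn3 and Atp10a in B6GFP without quality weights. Counts over all genes moved further. In MD43 against wild type in FVB (11 genes) they were 510 with all 24 columns (which adds the 2 columns equal to group means), 1 without quality weights, 7 without the trend, 3 with log2(CPM + 1), 19 with each library centred on its median, 0 within batch 1 and 0 within batch 2. In B6GFP (0 genes) they were 480 with all 24 columns, 1 with a mean per line and 2 with lines of a shared number as 1 block. Averaged over strains (5 genes) they were 1010, 1 without weights, 3 without the trend and 0 within batch 1. The difference of the effect (0 genes) gave 61 with all columns and 1 without the batch term. Between strains all 24 columns gave 13991 genes in MD43 (5126 otherwise), and no quality weights gave 1259 in wild type (6131 otherwise) and 1017 in MD43.

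With the replicate number of the labels as a block the counts were 35 in FVB, 1 in B6GFP and 13 averaged, Ube3a passed between the MD43 groups (-0.24, adjusted p = 0.0457, limma), and Peg12 stayed past the threshold (0.21 and 0.33). Lines of the same number did not deviate together in all pairs (correlations from -0.484 to 0.138), so the numbers were not taken to pair the lines. Limma-voom on the recovered reads, chosen after the data had been seen, gave 65, 2, 27 and 1 genes in these 4 comparisons and 0 members, and Peg12 at 0.30 (adjusted p = 0.00133) and 0.37 (adjusted p = 0.00166) between strains. Leaving out each line gave 3 (without FVB_WT replicate 2 or 3) to 976 genes (without FVB_MD43 replicate 2) in FVB. It gave 0 to 139 in B6GFP and 2 to 91 averaged, both highest without B6GFP_MD43 replicate 3, and 0 to 12 for the difference of the effect, the most without B6GFP_MD43 replicate 1. Between wild types it gave 4014 (without FVB_WT replicate 2) to 6400, and between MD43 groups 4645 to 8179 (without B6GFP_MD43 replicate 3). Peg12 kept an adjusted p (limma) of at most 0.0156 and 0.00103 over these fits. Depth limits Snrpn and Magel2 most, and batch 2 was the shallowest.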
